A study of Mus musculus with 12 samples.

Results

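The chemokines and their receptors were followed as one gene family in plucked mouse skin. Members were all genes of the RefSeq mouse table with a Ccl, Cxcl, Ccr or Cxcr symbol and a number, together with Xcl1, Cx3cl1 and Cx3cr1. The rule gave 62 genes, 5 of them listed as pseudogenes. A probe was on the array for 52, and 36 were tested (22 ligands and 14 receptors) among the 16181 genes tested in all. A gene was tested when 1 of its probes was well above background, by the scanner software's own call, on at least 3 of the 12 arrays.

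Skin of 12 male mice was hybridised to 1 one-colour array per mouse, 12 days after the hair had been plucked, to ask what Sox4 contributes to hair regrowth and the activation of follicle stem cells. All mice had a mixed C57Bl6/129Sv background in a ratio of 75:25, and were either WT (wildtype) or cKO, with a conditional knockout of Sox4 in skin. Exp 1 held 3 WT and 3 cKO mice of 68 to 72 weeks, and Exp 2 held 3 WT and 3 cKO mice of 16 to 20 weeks, so that age and experiment cannot be told apart. Which promoter drove the recombinase was not given in the labels. No unplucked skin was analysed here, so values describe plucked skin only.

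Chemokines are small secreted proteins that attract leukocytes along a gradient, and their receptors are G protein-coupled receptors on the responding cells. In skin, keratinocytes, fibroblasts, endothelial cells and resident macrophages make ligands, while T cells, monocytes, dendritic cells and granulocytes carry most receptors. Several ligands are encoded side by side in clusters, and one receptor often binds several ligands.

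Values are given on a log2 scale with the array's own 75th percentile set to 0, and levels of different probes are not compared. An array had 53.9% to 62.6% of its probes well above background and a 75th percentile of 364 to 554 intensity units. The probe of the targeted gene, Sox4, read between 1.90 and 2.43 in WT mice and between -4.26 and -2.55 in cKO mice, so all 12 arrays matched their genotype labels. Because the RNA came from whole skin, fewer cells of a type and less RNA per cell cannot be told apart. The labels give each mouse as a separate animal. "Called" below means an adjusted p under 0.05 (limma, Benjamini-Hochberg over all genes tested, two-sided).

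Genotype was compared first, because the study was built around Sox4. No member was called for cKO against WT averaged over both experiments, where 0.42% of all genes tested were called (68 of 16181). The count of members was 0 as well in Exp 1 alone (0.117% of all genes), in Exp 2 alone (0.0618%) and for the difference between these differences (0.00618%). Leaving out 1 mouse gave 1 member in the average without WT 2 (Xcl1), without WT 5 (Ccl1) or without cKO 5 (Cx3cr1). Over all genes, 43, 35 and 106 of 16181 were called in these fits. Leaving out 1 mouse also gave 1 in Exp 1 without WT 5 (Ccl1, beside 12 of all genes). In Exp 2 there was 1 without WT 2 (Xcl1, beside 5 of all genes). At an unadjusted p under 0.05 in limma, there were 8 members for the averaged contrast (12.2% of all genes), 7 in Exp 1 (11.3%), 4 in Exp 2 (4.67%) and 2 for the difference between the experiments (3.16%). The array names carry a P1 or P2 tag, whose meaning the labels do not give. In Exp 2 all WT arrays are P2 and all cKO arrays P1, so tag and genotype cannot be told apart there; in Exp 1 both genotypes hold both tags. With the tag in the model 0 members were called for genotype, and the averaged differences were 1.05 for Ccl1 (adjusted p 0.16), -1.63 for Xcl1 and -0.84 for Cxcl14. In the authors' value table the differences were 0.56 for Ccl1 and -0.59 for Xcl1, neither called. The median member difference was -0.06 over 36 members, with 16 positive, beside -0.04 over all genes. These counts do not show that the genotypes are alike.

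Ccl1, a ligand of Ccr8 that attracts T cells, lay closest to the threshold. Its lowest, median and highest levels were -3.44, -3.08 and -2.11 in WT mice and -2.25, -1.83 and -1.48 in cKO mice. One WT mouse of Exp 2, WT 5 at -2.11, lay inside the cKO range, and the other 5 WT mice lay below all cKO mice. Averaged over experiments, Ccl1 was 1.10 ± 0.20 (SE) higher in cKO, with an adjusted p of 0.0501 and an exact permutation p of 0.015 (two-sided, labels exchanged within experiments). The difference was 1.41 ± 0.28 in Exp 1 and 0.78 ± 0.28 in Exp 2. Ccl1 had the same direction in 24 of 24 alternative fits and passed the threshold in 5 of them, one being the fit without WT 5 (adjusted p 0.00155); the highest adjusted p was 0.219. Its differences were 0.73 within slide 1 and 1.12 within slide 2, the 2 slides that held both genotypes.

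Among the other ligands, Xcl1 and Cxcl14 were the 2 members whose 6 cKO mice all lay below the 6 WT mice, an arrangement that 1.2% of all genes tested shared. In the opposite direction, with all cKO mice above all WT mice, there were 0 members and 0.0556% of all genes. Xcl1, a ligand made by activated T and NK cells, read -3.18, -2.87 and -0.83 (lowest, median and highest) in WT mice and -4.72, -4.09 and -3.39 in cKO mice. A single mouse, WT 2 of Exp 1, set the highest Xcl1 value. The averaged difference was -1.51 ± 0.31 with an adjusted p of 0.0829, and the exact permutation p was 0.005, the smallest that 400 arrangements allow. Without overlap between the genotypes this permutation p is fixed in advance, here and for Cxcl14, so it adds nothing to the lack of overlap. Without WT 2 the gene passed the threshold at an adjusted p of 0.00486; over 24 alternative fits the adjusted p ran up to 0.396. The differences were -1.79 within slide 1 and -0.93 within slide 2.

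Cxcl14, a ligand made by keratinocytes and other epithelial cells, read 4.94, 5.11 and 5.49 in WT mice and 3.40, 4.47 and 4.70 in cKO mice. The lowest cKO value came from cKO 5 of Exp 1, and the other 5 cKO mice lay between 4.43 and 4.70. Its averaged difference was -0.80 ± 0.19, with an adjusted p of 0.131 and an exact permutation p of 0.005. None of 24 alternative fits called Cxcl14, with adjusted p from 0.0512 to 0.318, and the difference was -0.61 within slide 1 and -1.25 within slide 2. On slide 2, cKO 5 was the only cKO mouse of Exp 1. Keratinocyte markers were given beside it, and 0 of 8 were called for genotype, with an averaged median difference of 0.06. Their median was 0.43 in Exp 1, with 8 of 8 positive, and -0.22 in Exp 2, with 6 of 8 negative. The mouse cKO 5 also stood apart in the anagen hair matrix list, at a list mean of 1.76 against 3.78 to 4.57 in the other 11 mice, and the part of this in the Cxcl14 values was not tested.

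The interferon-induced ligands of Cxcr3 were both numerically higher in cKO. Cxcl10 read -1.37, -0.81 and -0.19 in WT mice and -0.62, -0.01 and 1.15 in cKO mice, with a difference of 0.96 ± 0.27 and an adjusted p of 0.192. Cxcl9 read -2.77, -2.41 and -1.45 in WT mice and -2.13, -1.80 and 0.25 in cKO mice, with a difference of 0.83 ± 0.39 and an adjusted p of 0.434. In both genes the highest value came from cKO 6 of Exp 1, and the genotypes overlapped. Neither passed the threshold in any of 24 alternative fits. Within slides 1 and 2 Cxcl10 differed by 0.65 and 0.75. Irf1, a transcription factor of the interferon response, differed by 0.39 (adjusted p 0.296).

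**Figure D1:**
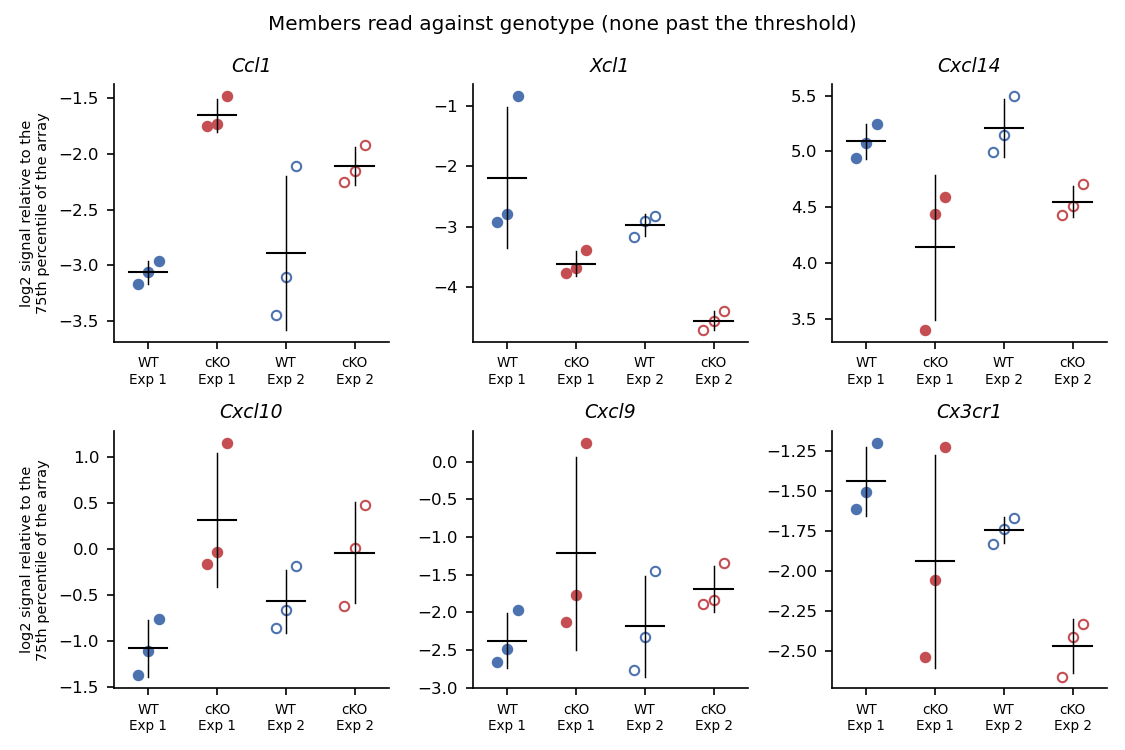
Level of 6 members by mouse (log2 scale, 0 at the array's 75th percentile; blue WT, red cKO; filled Exp 1, open Exp 2; horizontal bar mean, vertical bar SD of 3 mice). Xcl1 and Cxcl14 have no overlap between the genotypes over all 12 mice, while WT 5 of Exp 2 lies inside the cKO range for Ccl1; none of the 6 passed the threshold.

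All 5 CXC and CX3C receptors tested had a negative genotype difference, and none was called. Cx3cr1, the receptor of monocytes and tissue macrophages for Cx3cl1, read -1.83, -1.64 and -1.20 in WT mice and -2.66, -2.37 and -1.23 in cKO mice. The value of cKO 5 lay among the WT mice and the other 5 cKO mice lay below them all. The difference was -0.61 ± 0.19 (adjusted p 0.26), and Cx3cr1 passed the threshold when cKO 5 was left out. The differences were -0.81 within slide 1 and -0.26 within slide 2. Further probes of Cx3cr1 gave averaged differences of -0.62 and -0.27. Cxcr6 differed by -0.38 ± 0.13 (adjusted p 0.296). Ccr9, a T cell receptor, read -4.16, -3.21 and -2.40 in WT mice and -3.55, -2.67 and -1.14 in cKO mice, and differed by 0.75 ± 0.27 (adjusted p 0.306). For Ccr3, the eotaxin receptor of eosinophils, no array of the WT mice of Exp 1 was well above background, so that its fitted difference of 0.62 ± 0.21 (adjusted p 0.28) is not a reliable size. Cxcr4, the receptor of Cxcl12, differed by -0.12 ± 0.12 (adjusted p 0.686).

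The CC ligands of monocytes, T cells and eosinophils had genotype differences between -0.49 and 0.18 over 9 tested, with 6 negative. Ccl9 had the smallest p of the group; it read 0.71, 2.02 and 2.66 in WT mice and -0.04, 1.46 and 2.64 in cKO mice, and differed by -0.49 ± 0.29 (adjusted p 0.519). Ccl24 (-0.19) and Ccl2 (0.18) came next, with adjusted p of 0.79 and 0.794. Of the other CXC ligands, Cxcl16 differed by 0.33 ± 0.21 (adjusted p 0.548) and Cxcl13 by 0.32 ± 0.40 (adjusted p 0.777). Ccl27a, Ccl19 and Cx3cl1 differed by 0.18, 0.16 and 0.08, and the genotypes overlapped for all of them.

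T cell markers are given here because T cells carry or make several of these members. For genotype, 0 of 8 T cell markers tested were called, with a median of -0.25, and the list mean ran from -1.22 to -0.81 in WT mice and from -1.76 to -0.54 in cKO mice. The smallest adjusted p among them were those of Lck (-0.43, adjusted p 0.0975), Cd3d (-0.77, adjusted p 0.112) and Cd3g (-0.90, adjusted p 0.131). Their part in the values of Xcl1 and Cxcr6 was not tested. Skeletal muscle markers were numerically higher in cKO for 8 of 8, with a median of 2.51 and 0 called. Anagen hair matrix markers were numerically lower for 8 of 8 (median -0.39) and adipocyte markers for 4 of 6 (median -0.44), with 0 called. The part of these lists in the genotype differences was not tested.

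The experiments were compared next. Averaged over genotypes, 13 of 36 members were called between Exp 1 and Exp 2, where 20.2% of all genes tested were called (3270 of 16181). Of the 13, 5 were higher in Exp 1, the older mice, where 10.7% of all genes were, and 8 were lower, where 9.47% of all genes were. Subtracting the median of each array in place of the 75th percentile turned the split over all genes from 1737 higher and 1533 lower to 708 higher and 1465 lower, and the members' split from 5 and 8 to 4 and 8. The median member difference was 0.12, with 21 of 36 positive, beside 0.01 over all genes. All 6 mice of Exp 1 lay below all 6 of Exp 2 for 4 members (Ccl6, Ccl24, Cxcl13 and Ccr2), as did 4.56% of all genes, and 0 members had all Exp 1 mice above, as did 5.72% of all genes.

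**Figure D2:**
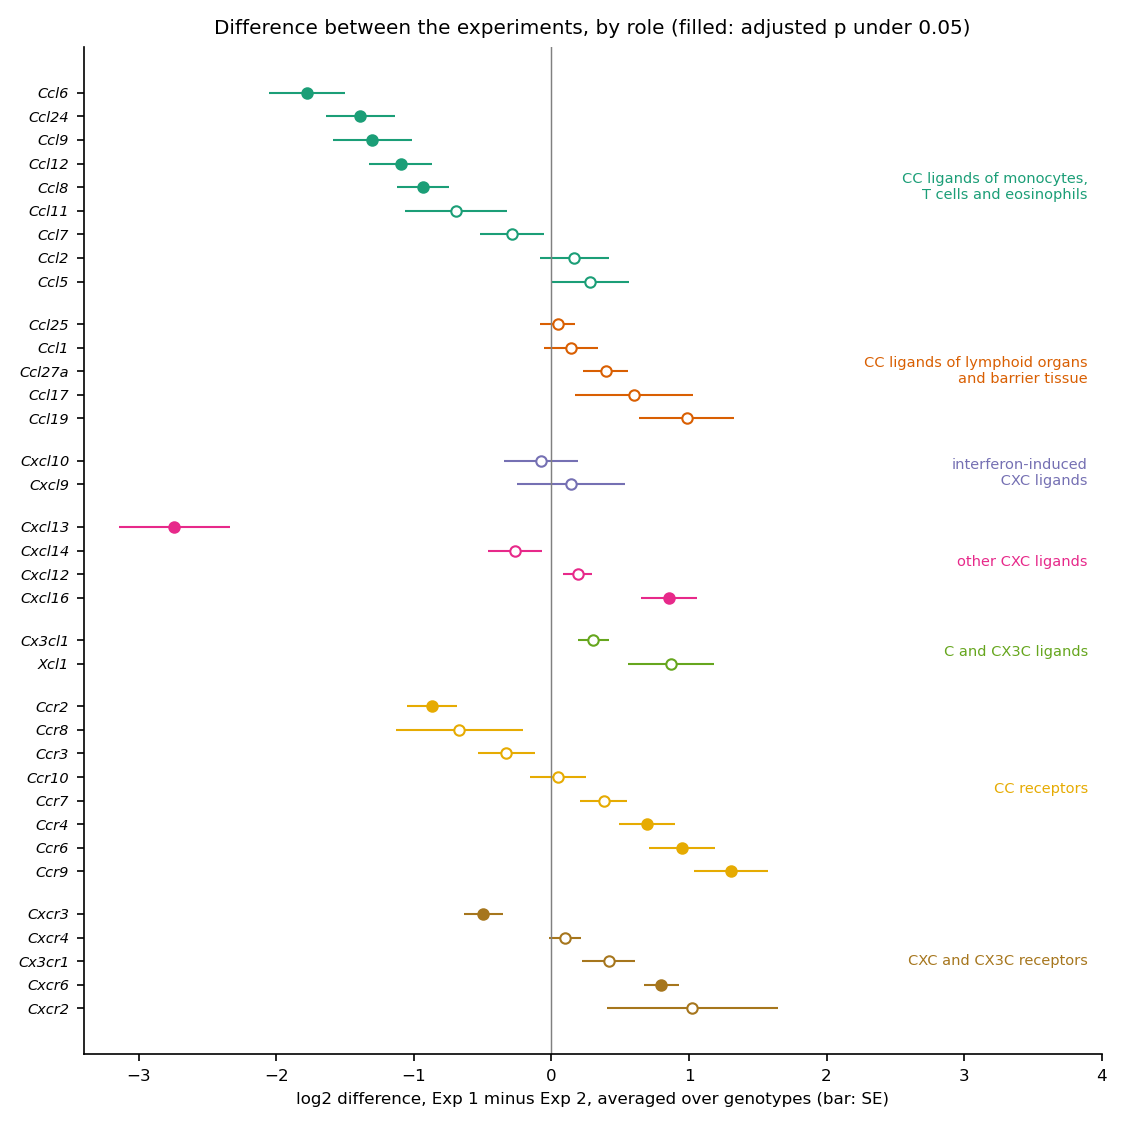
Log2 difference between Exp 1 and Exp 2, averaged over genotypes, for the members tested and reported here, grouped by role (bar: SE; filled: adjusted p under 0.05). Of the 9 CC ligands in the first group 5 are filled, all to the left of 0, and Cxcl13 lies farthest left at -2.74.

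Among CC ligands that attract monocytes, T cells and eosinophils, 9 of 12 were tested, 5 were called lower in Exp 1 and 0 higher, with a median difference of -0.93. Ccl6, a mouse ligand made by macrophages and other myeloid cells, read 0.82, 1.38 and 2.50 in Exp 1 and 2.62, 3.22 and 3.71 in Exp 2. Its difference of -1.78 ± 0.28 is a level 3.42-fold lower in Exp 1 (adjusted p 0.0036). The gene beside it, Ccl9, which encodes another ligand of myeloid cells, read -0.04, 0.76 and 2.38 in Exp 1 and 1.74, 2.22 and 2.66 in Exp 2. Only WT 2 of Exp 1, at 2.38, reached into the Exp 2 range for Ccl9, and the same mouse was the highest of Exp 1 for Ccl6. Ccl9 was 2.47-fold lower in Exp 1, with a log2 difference of -1.30 ± 0.29 (adjusted p 0.0123).

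Ccl24, an eotaxin and ligand of Ccr3, read -3.31, -2.39 and -1.81 in Exp 1 and -1.25, -1.10 and -0.46 in Exp 2, without overlap. The difference was -1.39 ± 0.25, or 2.62-fold lower in Exp 1 (adjusted p 0.00568). Ccl12, a ligand of the monocyte receptor Ccr2, read -2.64, -1.96 and -1.32 in Exp 1 and -1.41, -0.93 and -0.47 in Exp 2. Here cKO 6 of Exp 1 and cKO 4 of Exp 2 crossed by less than 0.1. Ccl12 was 2.14-fold lower in Exp 1, with a difference of -1.10 ± 0.23 (adjusted p 0.0105). Its neighbour Ccl8, a ligand of Ccr8 in mice, read 4.45, 4.77 and 5.55 in Exp 1 and 5.53, 5.88 and 6.06 in Exp 2. WT 3 of Exp 1, at 5.55, was the only mouse of Exp 1 inside the Exp 2 range. Ccl8 was 1.91-fold lower in Exp 1, with a difference of -0.93 ± 0.19 (adjusted p 0.00896).

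The other 4 tested ligands of this group were not called. Ccl11, the eotaxin beside Ccl12 on the chromosome, read -1.42, -0.43 and 1.06 in Exp 1 and -0.03, 0.27 and 0.78 in Exp 2, and differed by -0.69 ± 0.37 (adjusted p 0.213). Ccl7 differed by -0.28 ± 0.23, Ccl2 by 0.17 ± 0.25 and Ccl5 by 0.28 ± 0.28, with adjusted p between 0.415 and 0.682. Ccl2 and Ccl7 are ligands of Ccr2, as is Ccl12, and only Ccl12 of these was called; whether its difference exceeds theirs was not tested. In the order of coding genes on chromosome 11, Ccl2, Ccl7, Ccl11, Ccl12, Ccl8 and Ccl1 follow each other directly, and their differences ran -0.28 for Ccl7, -0.69 for Ccl11, -1.10 for Ccl12 and -0.93 for Ccl8, between 0.17 for Ccl2 and 0.14 for Ccl1. In a second run on the same chromosome, Ccl9 and Ccl6 lay between Ccl5, at 0.28, and Ccl3, which was not tested.

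The upstream sequences of these neighbouring pairs are shown because each pair was called lower together, beside those of Ccr2 and Cxcl13, the receptor and the CXC ligand called lower without overlap. Each is the 250 bases before the annotated start in RefSeq (GRCm38.p6), 5′ to 3′ on the gene's strand. Capitals mark matches to AACAAAG, a SOX-type motif, or, in Ccl9, to the NF-kB motif, on either strand.
Ccl12 (chr11:82101595-82101844, plus strand): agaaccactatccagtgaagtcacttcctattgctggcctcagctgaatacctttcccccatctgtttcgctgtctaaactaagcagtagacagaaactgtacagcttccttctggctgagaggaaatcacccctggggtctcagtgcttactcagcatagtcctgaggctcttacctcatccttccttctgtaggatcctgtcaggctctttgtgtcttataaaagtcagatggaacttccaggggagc
Ccl8 (chr11:82114935-82115184, plus strand): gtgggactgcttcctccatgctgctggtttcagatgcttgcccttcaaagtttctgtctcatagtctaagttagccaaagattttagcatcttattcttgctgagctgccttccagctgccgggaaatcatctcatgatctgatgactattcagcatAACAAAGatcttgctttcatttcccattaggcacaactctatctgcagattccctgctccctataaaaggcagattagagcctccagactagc
Ccl9 (chr11:83578637-83578886, minus strand): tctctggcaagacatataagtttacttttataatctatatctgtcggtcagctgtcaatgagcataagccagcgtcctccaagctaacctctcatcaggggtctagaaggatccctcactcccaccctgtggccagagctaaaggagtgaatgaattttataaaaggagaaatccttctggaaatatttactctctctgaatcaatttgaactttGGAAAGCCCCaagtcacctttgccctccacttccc
Ccl6 (chr11:83593088-83593337, minus strand): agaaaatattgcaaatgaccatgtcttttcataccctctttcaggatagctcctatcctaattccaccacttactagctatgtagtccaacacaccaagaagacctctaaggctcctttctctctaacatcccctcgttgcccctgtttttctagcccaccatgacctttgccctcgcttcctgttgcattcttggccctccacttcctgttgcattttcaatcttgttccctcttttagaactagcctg
Ccr2 (chr9:124101933-124102182, plus strand): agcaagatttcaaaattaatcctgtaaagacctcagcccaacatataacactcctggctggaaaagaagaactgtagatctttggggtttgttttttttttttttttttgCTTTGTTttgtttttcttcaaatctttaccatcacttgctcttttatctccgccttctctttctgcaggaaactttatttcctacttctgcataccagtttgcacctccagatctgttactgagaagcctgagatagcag
Cxcl13 (chr5:95956689-95956938, plus strand): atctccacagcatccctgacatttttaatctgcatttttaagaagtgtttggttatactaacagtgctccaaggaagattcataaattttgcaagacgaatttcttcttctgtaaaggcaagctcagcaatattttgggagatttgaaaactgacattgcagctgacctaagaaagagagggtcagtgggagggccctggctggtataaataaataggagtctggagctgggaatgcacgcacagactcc

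Across windows from 250 bases before to 50 after the start, AACAAAG occurred in 5.85% of all 32851 RefSeq promoter windows, the interferon-response motif ISRE (TTTC, any 2 bases, TTTC) in 3.44%, TTCNNNGAA (GAS) in 8.30% and the NF-kB motif in 8.46%, counting both strands and letting motifs overlap. A window was found for 27 of the 36 members tested and for 11 of the 13 called. AACAAAG was present for 3 of the 27, namely Ccl8, Ccr2 and Cxcr6, the last within the 50 bases after the start. The NF-kB motif was in 6, among them Ccl1 and Cxcl10, and ISRE in 3 (Ccl19, Cxcl10 and Cxcl14). Ccl9 and Ccl6 shared a longest run of 13 bases in the 250 bases shown, Ccl12 and Ccl8 a run of 8, and the other 13 pairs of these 6 sequences runs of 7 to 9. A match describes letters only, and no binding was measured.

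Of the other CXC ligands, Cxcl13 had the largest fitted difference of any member tested. Cxcl13, which attracts B cells through Cxcr5 and can be made by macrophages and stromal cells, read -4.90, -3.37 and -2.50 in Exp 1 and -1.44, -0.97 and -0.32 in Exp 2. Every mouse of Exp 1 lay more than 1 log2 unit below every mouse of Exp 2. The mean was -3.64 ± 0.91 (SD, n = 6) in Exp 1 and -0.90 ± 0.49 (SD, n = 6) in Exp 2. The difference of -2.74 ± 0.40 is a level 6.69-fold lower in Exp 1 (adjusted p 0.00324). The probe was well above background on 10 arrays, 2 of 3 in each group of Exp 1 and 3 of 3 in each of Exp 2, so the size of the difference rests in part on 2 dim arrays. The authors' value table gave -2.07 (adjusted p 0.0167). Its receptor Cxcr5 was on the array and was well above background in no mouse. Among B cell markers, 0 of 4 tested were called, with a median of -0.25.

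Cxcl16 moved the other way. This ligand of Cxcr6, made as a membrane-bound protein by macrophages, dendritic cells and keratinocytes, read -0.21, 0.40 and 1.55 in Exp 1 and -0.51, -0.34 and 0.07 in Exp 2. Only WT 3 of Exp 1 fell inside the Exp 2 range. Cxcl16 was 1.81-fold higher in Exp 1, with a difference of 0.85 ± 0.21 (adjusted p 0.0176). Its differences were 0.38 within slide 1 and 1.45 within slide 2. Cxcl12, the stromal ligand of Cxcr4, differed by 0.19 ± 0.10 (adjusted p 0.219), and a second probe of Cxcl12 gave -0.40, so the direction of Cxcl12 depends on the probe. Cxcl14 differed by -0.27 ± 0.19 (adjusted p 0.36).

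The CC ligands of lymphoid organs and barrier tissue were positive in all 5 of 17 that were tested, and 0 were called. Ccl19, a ligand of Ccr7 in lymphoid tissue, read -0.59, 0.38 and 1.72 in Exp 1 and -1.04, -0.68 and 0.61 in Exp 2, and differed by 0.98 ± 0.35 (adjusted p 0.0705). Ccl27a, the keratinocyte ligand of Ccr10, read 4.44, 4.90 and 5.64 in Exp 1 and 4.34, 4.62 and 4.95 in Exp 2, and differed by 0.39 ± 0.16 (adjusted p 0.115). Both have near-identical copies, which their probes may also read. Ccl17, a ligand of Ccr4, read -3.51, -2.80 and -1.58 in Exp 1 and -4.10, -3.61 and -2.02 in Exp 2, and differed by 0.60 ± 0.43 (adjusted p 0.349). The experiments overlapped for all 3, and Ccl25, the ligand of Ccr9, and Ccl1 differed by 0.04 ± 0.13 and 0.14 ± 0.20. In the remaining ligand classes Xcl1 differed by 0.87 ± 0.31 (adjusted p 0.0758). Cx3cl1, the membrane-bound ligand of Cx3cr1, read 1.56, 1.82 and 2.14 in Exp 1 and 1.34, 1.48 and 1.78 in Exp 2, and differed by 0.31 ± 0.11 (adjusted p 0.0778). Cxcl9 and Cxcl10 differed by 0.14 ± 0.39 and -0.08 ± 0.27.

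All 5 CXC ligands of neutrophils (Cxcl1, Cxcl2, Cxcl3, Cxcl5 and Cxcl15) failed the filter on dim probes, so no difference was tested for any of them. The other members with a probe that were not tested were Ccl3, Ccl4, Ccl20, Ccl22, Ccl26, Ccl28, Cxcl17, Ccr1, Ccr1l1, Cxcr1 and Cxcr5. No probe was matched for Ccl21a, Ccl21b, Ccl21c, Ccl21d, Ccl27b and the 5 pseudogenes, which were not analysed here. A few dim members were well above background in 1 or 2 mice. Cxcl5 read -2.51 in WT 2, where the other 11 mice were at -5.12 or lower and not well above background. The same mouse was the only one well above background for Ccl3, at -3.19, and Ccl4, at -3.22, both inflammatory ligands of monocytes and T cells. Cxcl1 was well above background in cKO 5, at -3.54, and in cKO 1, at -5.02.

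Among receptors, 9 of 11 CC receptors and 5 of 7 CXC and CX3C receptors were tested. Ccr2, the receptor that brings monocytes out of the blood, read -1.54, -1.18 and -0.69 in Exp 1 and -0.52, -0.28 and 0.12 in Exp 2, without overlap. Ccr2 was 1.83-fold lower in Exp 1, with a difference of -0.87 ± 0.18 (adjusted p 0.00981). Its chromosomal neighbour Ccr3, which was dim, differed by -0.33 ± 0.21 (adjusted p 0.287). Cxcr3, carried by activated T cells, read -2.71, -2.55 and -1.96 in Exp 1 and -2.22, -1.95 and -1.68 in Exp 2. It was 1.41-fold lower in Exp 1 (-0.49 ± 0.14, adjusted p 0.0342), and this call was lost in 8 of 12 fits that left out 1 mouse (WT 1, WT 2, WT 4, WT 6, cKO 3, cKO 4, cKO 5 or cKO 6).

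4 receptors were higher in Exp 1. Cxcr6, a receptor of resident T cells, read -0.32, 0.42 and 0.52 in Exp 1 and -0.82, -0.60 and -0.27 in Exp 2, and was 1.74-fold higher (0.80 ± 0.13, adjusted p 0.00407). A single mouse of Exp 1, cKO 2, reached into the Exp 2 range. A second probe of Cxcr6 gave a difference of 0.78. Ccr9, a receptor of T cells known best for homing to the gut, read -2.77, -2.47 and -1.14 in Exp 1 and -4.16, -3.64 and -2.56 in Exp 2, and was 2.47-fold higher in Exp 1 (1.31 ± 0.27, adjusted p 0.00932). The highest Ccr9 value of Exp 2, that of cKO 1, overlapped Exp 1.

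Ccr6, a receptor of interleukin-17-producing T cells and of dendritic cells, read -1.79, -1.01 and -0.67 in Exp 1 and -2.59, -2.07 and -1.34 in Exp 2. It was 1.93-fold higher in Exp 1 (0.95 ± 0.24, adjusted p 0.0215), with overlap between cKO 6 of Exp 1 and cKO 1 of Exp 2, and the call was lost without cKO 3 (adjusted p 0.0518). Ccr4, carried by skin-homing T cells, read -1.93, -1.54 and -0.54 in Exp 1 and -2.84, -2.01 and -1.70 in Exp 2. It was 1.62-fold higher in Exp 1 (0.70 ± 0.20, adjusted p 0.0372), and the call was lost in 6 of 12 fits that left out 1 mouse (WT 1, WT 2, WT 4, WT 6, cKO 1 or cKO 3). Ccr7, Ccr8, Ccr10, Cxcr4, Cx3cr1 and Cxcr2 were not called. Cxcr2, the neutrophil receptor, differed by 1.02 ± 0.62 (adjusted p 0.271), with cKO 5 of Exp 1 at -0.45 and the other 11 mice between -4.70 and -2.18.

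Set side by side as ligands and receptors, both sides were called in the same direction for Cxcl16 and Cxcr6, higher in Exp 1, and for Ccl12 and Ccr2, lower in Exp 1. The other tested ligands of Ccr2 named above, Ccl2 (0.17) and Ccl7 (-0.28), were not called. One side only was called for Ccl24 and Ccr3, for Ccl25 and Ccr9, for Ccl17 and Ccr4, and for Ccl8 and Ccr8 (-0.67 ± 0.46), where the slide block, like slide 2 alone, also called Ccr8 lower. Neither side was called for Ccl19 and Ccr7, Ccl1 and Ccr8, Ccl27a and Ccr10, Cxcl12 and Cxcr4, or Cx3cl1 and Cx3cr1. Cxcr3 was called lower while its ligands Cxcl9 and Cxcl10 were not called. Such pairs share arrays, so their differences are not independent.

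**Figure D3:**
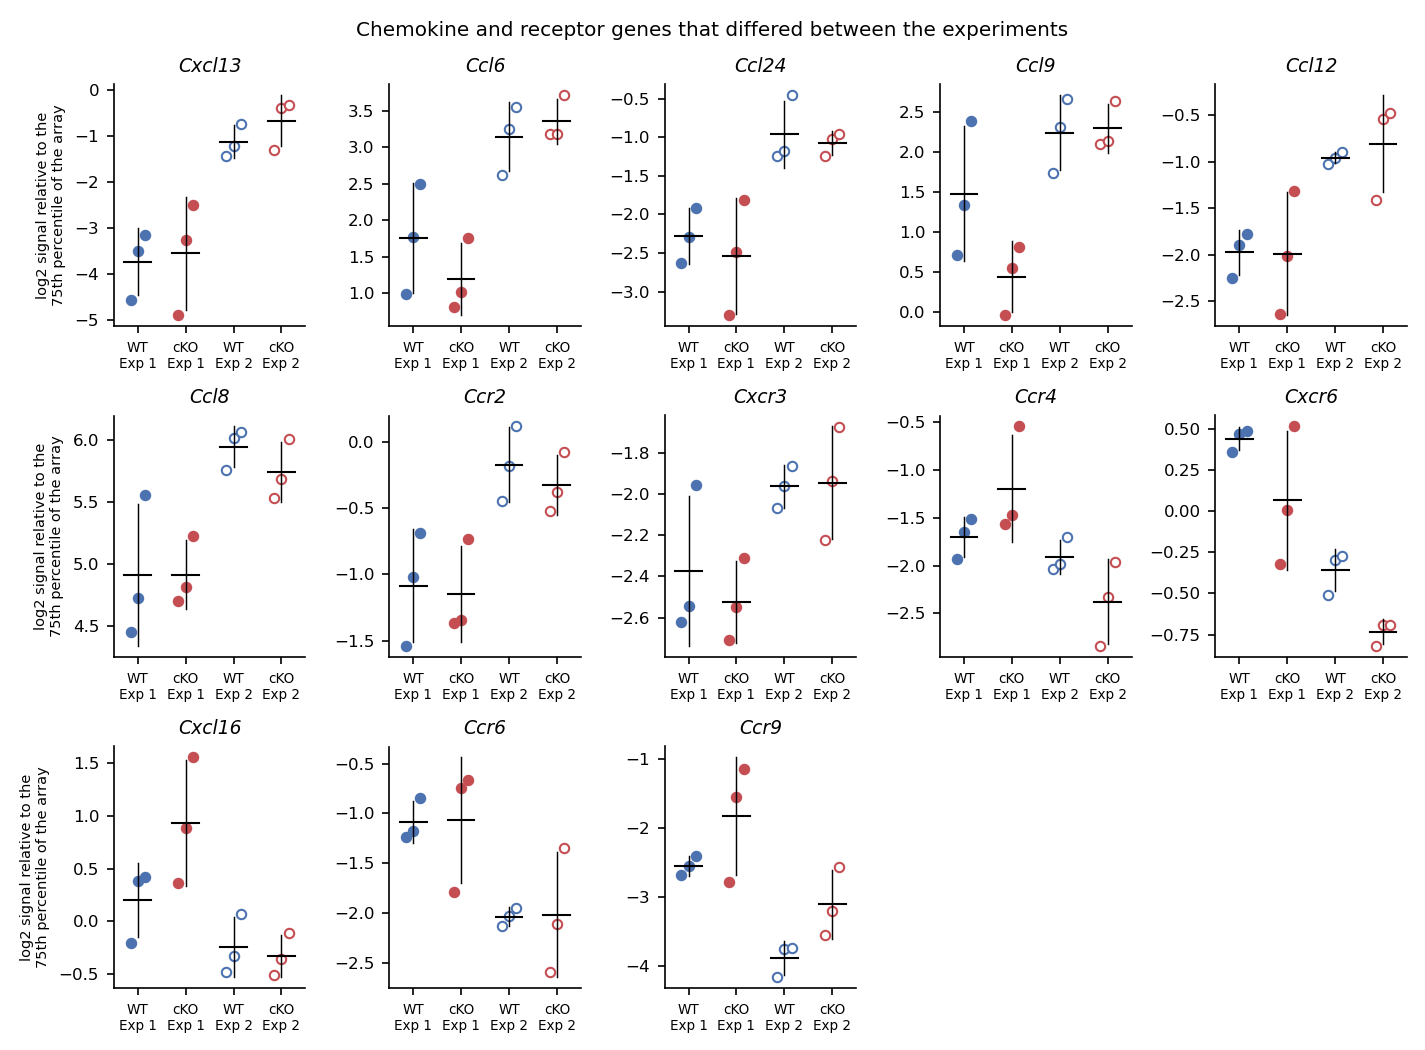
Level of the 13 members called between the experiments, by mouse (log2 scale, 0 at the array's 75th percentile; blue WT, red cKO; filled Exp 1, open Exp 2; horizontal bar mean, vertical bar SD of 3 mice). Cxcl13, Ccl6, Ccl24 and Ccr2 have no overlap between the 6 mice of Exp 1 and the 6 of Exp 2, and the other 9 overlap.

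The contrast was then read within each genotype, where the mice compared are different ones. In WT mice 0 members were called by limma (0.84% of all genes), with 9 at an unadjusted p under 0.05 (18.5% of all genes). Leaving out a cKO mouse, which changes only the shared estimate of the spread, gave 1 without cKO 2, 3 without cKO 5 and 2 without cKO 6. Over all genes, 122, 597 and 174 of 16181 were called in these fits, beside 136 with all mice. In cKO mice 8 were called (9.98% of all genes). Of these, 3 were higher in Exp 1 (Ccr4, Cxcl16 and Cxcr6; 5.38% of all genes) and 5 lower (Ccl6, Ccl9, Ccl12, Ccl24 and Cxcl13; 4.6% of all genes). The cKO count rested on few mice, as did the count over all genes (1615 of 16181). The member count was 0 without cKO 3 (157 of all genes), 0 without cKO 4 (196) and 1 without cKO 1 (591). It was 4 without cKO 5 (623 of all genes), 5 without cKO 2 (886) and 11 without cKO 6 (2324). With slide as a block, which sets cKO 3 aside because it was alone on its slide, the cKO count was 1 (0.902% of all genes). With the array-name tag in the model it was 0 (0.569%), with 15 at an unadjusted p under 0.05 (20.3%).

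A call in one genotype and not in the other does not show that the genotypes differ, and the test of that difference called 0 members. The smallest unadjusted p of that test belonged to Ccr4 (0.0378), at 0.21 ± 0.29 in WT and 1.18 ± 0.29 in cKO mice, and to Ccl27a (0.0414), at 0.01 in WT and 0.77 in cKO mice. Cxcl13 differed by -2.60 in WT (adjusted p 0.0653) and by -2.88 in cKO mice (adjusted p 0.0208). Cxcr6 differed by 0.80 in both, with adjusted p of 0.0714 and 0.0292. Over the 36 members the sign was the same in both genotypes for 31 (86.1%), 17 positive and 14 negative, beside 75.3% of all genes. Pearson's r across the 36 members was 0.90 and Spearman's rho 0.85, as a description across genes that share arrays; over all genes r was 0.82.

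**Figure D4:**
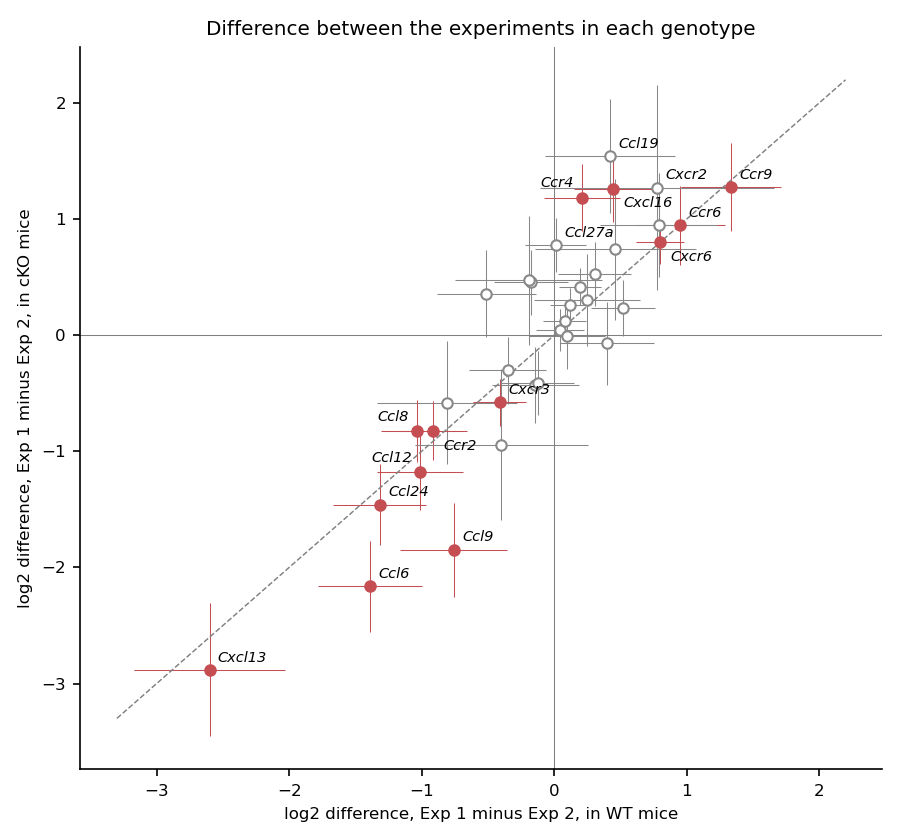
Log2 difference between Exp 1 and Exp 2 in WT mice (x axis) against cKO mice (y axis) for the members tested and reported here, with SE bars; red points are the 13 called in the average, and the dashed line marks equal differences. Most points lie in the quadrants of equal sign, with Cxcl13 at -2.60 and -2.88.

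Array slide was one technical grouping known from the files, besides the tag in the array names. All 13 called members kept their direction within slide 1 (6 mice) and within slide 2 (5 mice). These arrays were part of the fit that called the 13, so the shared direction is not a replication. Slide 1 held 1 WT and 1 cKO mouse of Exp 2, and slide 2 held 1 mouse in each group but WT of Exp 2. Cxcl13 differed by -2.30 within slide 1 and -3.53 within slide 2, Ccl6 by -1.65 and -2.06, Ccr2 by -0.76 and -1.02, and Cxcr6 by 0.73 and 0.99. Those of Cxcl16 (0.38 and 1.45), Ccr9 (0.80 and 1.90) and Ccr4 (0.39 and 0.89) were more than 2 times as large within slide 2. The same held for Ccr6 (0.60 and 1.33) and Cxcr3 (-0.24 and -0.66). None was called within slide 1, where 0.377% of all genes were, with 2 residual degrees of freedom and 12 members at an unadjusted p under 0.05 (15.1% of all genes). Within slide 2, with 1 residual degree of freedom, 18 members were called (20.8% of all genes). With slide as a block 11 members were called in the average (14.1% of all genes). Calls were then lost for Ccr4 (adjusted p 0.0578), Ccr6 (0.0706) and Cxcr3 (0.0984), and Ccr8 was newly called lower in Exp 1, as it also was within slide 2. With the tag in the model 12 were called (19.3% of all genes), without Ccr4 (adjusted p 0.0510).

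The authors' value table called 10 members between the experiments, beside 10.0% of all genes. Of the 5 called higher in Exp 1 only Cxcr6 was called there. Ccr9 differed by 0.58 (adjusted p 0.106), Cxcl16 by 0.63 (adjusted p 0.14), Ccr4 by 0.38 (adjusted p 0.19) and Ccr6 by 0.51 (adjusted p 0.208), while all 8 called lower were called lower there too and Cx3cl1 was called higher. Leaving out that table's cKO 1 column, a choice made after seeing the data, gave 13 called, with Ccr6, Ccr9, Cxcl16 and Cx3cl1 among them and Ccr4 not.

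Markers of several cell types moved with the experiment, and are given for the members they could touch. Macrophage markers were lower in Exp 1 for 8 of 10 tested, 0 were higher, and the median was -0.78. C1qa, a complement gene of tissue macrophages, was at 1.00 ± 0.39 (SD) in Exp 1 and 2.37 ± 0.27 in Exp 2 (difference -1.38, adjusted p 0.00261), and the scavenger receptor gene Cd163 differed by -2.07 (adjusted p 0.00911). Adgre1 (-0.43, adjusted p 0.149) and Mertk (0.15, adjusted p 0.618) were not called, and Cd68 was not tested. The mean of the list ran from 0.00 (cKO 6) to 0.86 in Exp 1 and from 1.11 to 1.51 in Exp 2, without overlap. The part of this in the lower Ccl6, Ccl9, Ccl8, Ccl12, Ccl24, Cxcl13 and Ccr2 was not tested.

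T cell markers were higher in Exp 1 for 2 of 8 tested, Cd3g (1.15, adjusted p 0.00702) and Cd3d (0.70, adjusted p 0.0220), with a median of 0.10 for the list. Cd3e differed by 0.26 (adjusted p 0.477), Cd4 by -0.33 and Lck by -0.10. The list mean ran from -1.38 to -0.54 in Exp 1 and from -1.76 to -0.90 in Exp 2. Dendritic and Langerhans cell markers were split, with Cd207 and Itgax higher in Exp 1 and Batf3 and Cd209a lower. Keratinocyte markers were higher for 7 of 8, with a median of 0.60, a list mean of 5.66 to 6.91 in Exp 1 and of 5.09 to 5.63 in Exp 2. The part of these in the higher Ccr4, Ccr6, Ccr9, Cxcr6 and Cxcl16 was not tested.

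Skeletal muscle markers were lower in Exp 1 for 8 of 8, with a median of -6.22, the largest of any list given here. Their list mean ran from -4.22 to 0.44 in Exp 1, and in Exp 2 it was -1.19 in WT 5 and 4.12 to 5.24 in the other 5 mice. Of the 8 members called lower in Exp 1, WT 5 read 3.55 for Ccl6, 2.66 for Ccl9, 6.06 for Ccl8, -0.96 for Ccl12, -1.24 for Ccl24, -1.21 for Cxcl13, -0.18 for Ccr2 and -2.07 for Cxcr3. For Cxcr3 the Exp 1 mice reached -1.96, above WT 5, and for the other 7 WT 5 lay above all 6 mice of Exp 1. For Ccl6, Ccl24, Cxcl13 and Ccr2 this was fixed in advance, because the experiments did not overlap. WT 5 is also only 1 mouse, and its values were part of the fit that called all 8, so its position is not separate evidence. The part of muscle content in the differences between the experiments was not tested. Neutrophil markers S100a9 and Csf3r were called higher in Exp 1 (2 of 6), while the list was split, with 3 positive, 3 negative and a median of -0.17. The mast cell (0 of 7), lymphatic endothelium (0 of 4) and anagen hair matrix (0 of 8) lists had no marker called. Without calls, the hair matrix markers were still negative for 8 of 8 (median -0.66) and the mast cell markers for 6 of 7 (median -0.29). Fibroblast markers were called lower for 3 of 7, blood endothelium for 2 of 6 and adipocyte for 1 of 6. With or without a call, adipocyte markers were negative for 6 of 6, with a median of -1.43. Fibroblast markers were negative for 5 of 7 (median -0.22) and blood endothelium for 5 of 6 (median -0.12).

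**Figure D5:**
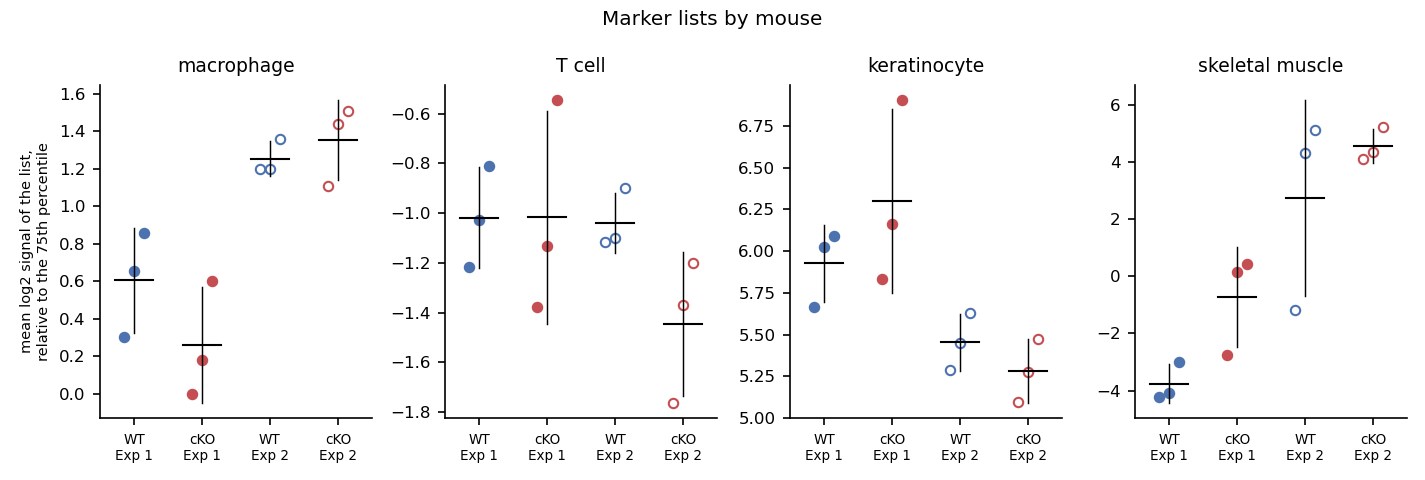
Mean level of 4 marker lists by mouse (log2 scale, 0 at the array's 75th percentile, averaged over the markers tested; blue WT, red cKO; filled Exp 1, open Exp 2; horizontal bar mean, vertical bar SD of 3 mice). The macrophage list lies between 1.11 and 1.51 in Exp 2 and at or below 0.86 in Exp 1, and the muscle list of WT 5 of Exp 2 lies at -1.19.

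Other genes of the pathway were read from 3 lists named by function. Of 6 tested genes for further chemokine ligands, receptors and decoys, out of 8 listed, 3 were called between the experiments (20.2% of all genes). Ackr2, a decoy receptor that takes up inflammatory CC ligands, was 1.00 ± 0.16 (SE) higher in Exp 1 (adjusted p 0.00362), and Ackr4, a decoy for Ccl19, Ccl21 and Ccl25, was 0.93 ± 0.18 higher (adjusted p 0.00771). Pf4, a platelet and macrophage CXC chemokine named outside the numbered scheme, was at 2.76 ± 0.40 (SD) in Exp 1 and 3.50 ± 0.16 in Exp 2, with a difference of -0.73 (adjusted p 0.00494). Ackr1, Ackr3 and Ccrl2 were not called.

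Among 17 tested genes of chemokine receptor signalling, out of 18 listed, only Rgs1 was called, 1.54 ± 0.27 higher in Exp 1 (adjusted p 0.00522), and the median was 0.01. Rgs1 encodes a brake on G protein signalling in lymphocytes. Of 17 tested inducers of chemokine genes, out of 20 listed, Lta (0.74, adjusted p 0.0107) and Relb (0.40, adjusted p 0.0472) were higher in Exp 1 and 0 lower. Tnf (-0.24), Il1b (0.36) and Nfkb1 (0.20) were not called. For genotype, 0 genes of these 3 lists were called. Rgs1 differed by -0.94 (adjusted p 0.206) and Irf1 by 0.39 (adjusted p 0.296).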

How the data were processed

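Per the file headers, the deposited scanner files hold spot intensities of Feature Extraction 11.5.1.1; gProcessedSignal is a background-subtracted intensity that is not scaled between arrays. Their flags (other values, 0 or 1, per the file headers) mark spots well above background and outliers. In the authors' value table the deposited values are on a log2 scale; the submitters' processing notes name limma, and the sources used here do not give further steps. It served as an alternative; its cKO 1 column correlated at 0.34 with that mouse's array after centring, against 0.81 to 0.90 for the others.

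Control and outlier spots were left out, log2 intensities were averaged per probe, then centred on each array's 75th percentile. Accessions named 27509 of 55681 probes through RefSeq (GRCm38.p6). The probe with the highest mean per gene, among those well above background on at least 3 arrays, was fitted as 4 group means with limma 3.58.1 in R 4.3.3, with p-values adjusted over 16181 genes by Benjamini-Hochberg. Single members were also checked by exact permutation. The script was tested on simulated data. The array number limits the precision.

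Given in full were members past the threshold in any contrast and, per role, the 3 with the smallest p for genotype and for experiment, shortened where groups overlapped widely. Single values of 1 member and of some listed genes are not reported here; they stay in the counts. Members and lists were chosen with earlier results of these data known. Alternatives were the background correction, normalization, filter, slide, array-name tag, variance trend, probe rule, value table and leaving out each mouse; the value table without its cKO 1 column was chosen after seeing the data. Promoters were read with Python 3.11.15.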

Additional observations from a re-analysis of the deposited data

How the results depend on the processing

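The 13 members called between the experiments kept their direction in all 24 alternative fits of each. Those fits reuse the mice on which the members were called, so they are not independent of the call. Ccr4 also lost its call with median scaling and quantile normalization, and Cxcr3 with normexp. Members not called gained a call between the experiments in some fits. These included Cx3cl1 (normexp, quantile, the authors' table with and without its cKO 1 column, without WT 5), Ccl27a (normexp, within slide 2, without cKO 6), Ccr8 (slide block, within slide 2), Ccl19 (without WT 4), Xcl1 (without WT 1 or WT 2), Ccl11 (without cKO 5), Cx3cr1 (within slide 2, without cKO 2) and Cxcr2 (within slide 2). No member was called for genotype in the average, and the count was 1 (Ccl1) with normexp background correction, with a stricter filter (6 arrays) and with an intensity trend, and 2 within slide 2. Leaving out 1 mouse gave 0 to 1 for genotype in the average, in Exp 1 and in Exp 2, and 0 to 0 for the interaction. Within slide 2, a contrast in a single experiment or genotype sets 1 mouse against 1 or 2. No count is therefore given for these contrasts or for the interaction there. The averaged experiment count was 0 within slide 1 and 10 to 14 without 1 mouse. In WT it was 2 with normexp, 1 with median scaling, 1 with an intensity trend, 2 in the authors' table without its cKO 1 column and 0 to 3 without 1 mouse. In cKO it was 1 with slide as a block, 0 with the tag in the array names added to the model, 0 within slide 1, 1 in the authors' table and 0 to 11 without 1 mouse (11 without cKO 6). The cause was not tested. Over all genes, the 68 called for genotype in the average became 31 with the tag, 45 without a filter, 19 in the authors' table (37 without its cKO 1 column), 473 within slide 2 and 31 to 122 without 1 mouse. The 3270 called between the experiments became 2173 with median scaling, 1626 in the authors' table, 61 within slide 1 and 1994 to 3561 without 1 mouse. Without 1 mouse, the 1615 called between the experiments in cKO mice became 157 to 2324, and the 136 in WT mice became 6 to 597. Without a filter 52 members were tested and 19 called; the 6 added (Ccl3, Ccr1, Cxcl2, Cxcl3, Cxcl15 and Cxcr5) were at or near background. No paired analysis was possible because mouse numbers name mice and, within an experiment, WT and cKO share 1 number. The dim members Ccr3, Ccr8, Ccr10, Cxcl13, Cxcr2 and Xcl1 were not well above background on every array, which limits their precision.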

Other observations

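Several members had more than 1 probe, and the probes did not always read alike between the experiments. The 3 probes of Ccl19 gave 0.98, 0.66 and 0.64, and the 2 of Cxcl9 gave 0.14 and 0.42. Cx3cr1 had 2 probes at 0.42 and 0.52 and another at -0.27, none called. Of the 3 Ccl27a probes, 2 gave 0.41 and 0.39 and the other 1.35 (adjusted p 0.0612), so the size of the Ccl27a difference depends on the probe. For genotype, the 2 Cxcl9 probes gave 0.83 and 0.81, and those of Cxcr6 gave -0.38 and -0.39. The probes of Cx3cr1 gave -0.61, -0.62 and -0.27, those of Ccl27a 0.19, 0.18 and -0.09, and those of Cxcl12 -0.03 and -0.30. The size for Cx3cr1 and Cxcl12 and the direction for Ccl27a thus depend on the probe.

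Over the 36 members, the genotype difference had the same sign in Exp 1 and Exp 2 for 20 (55.6%), beside 61.1% of all genes. Pearson's r across the members was 0.63, beside 0.40 over all genes, as a description across genes of the same arrays.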
